A study of Mus musculus with 6 samples.

Results

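Binding of HA-tagged CDK6 was examined at 8 genes that write or erase DNA methylation, Dnmt1, Uhrf1, Dnmt3a, Dnmt3b, Tet1, Tet2, Tet3 and Tdg, out of 21938 protein-coding genes of the mouse annotation. The genes were taken by name, and all 8 had a gene model. A ChIP-seq peak was assigned to a gene when it overlapped a promoter window, reaching 2000 bp upstream and 200 bp downstream of each annotated transcript start, or the gene body. The cells were BCR-ABL(p185)+ mouse pre/pro-B cell lines grown out of Cdk6-/- bone marrow after transduction with the oncogene. Both groups overexpressed an HA-tagged CDK6 from the vector pMSCV-IRES-GFP, either the wildtype protein (CDK6-WT, n = 2 libraries) or the kinase-inactive mutant CDK6-K43M (n = 2 libraries). Chromatin was crosslinked with DSG and formaldehyde and precipitated with an antibody against the HA tag, and the comparison asks whether the loss of kinase activity changes where CDK6 sits on chromatin. The 2 input libraries of the series were not analysed here. The sources used here do not say whether the replicate number marks separate cell lines, cultures or days, so the spread between the 2 libraries of a group may be technical. Both proteins were overexpressed, so the values describe the tagged proteins and not endogenous CDK6, and peak lists give no expression by which the cell type could be checked.

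DNA methylation is placed on the cytosine of CpG dinucleotides. DNMT3A and DNMT3B add new methyl groups, while DNMT1, guided to newly replicated DNA by UHRF1, copies the existing pattern onto the daughter strand. The TET enzymes oxidise methylcytosine, and the glycosylase TDG cuts out the oxidised bases, which are then replaced by base excision repair. In haematopoietic cells DNMT3A and TET2 are best known as genes that are recurrently mutated in leukaemia, and CDK6 is a cell cycle kinase without a DNA-binding domain of its own.

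The sites on which the results turn are shown as the 201 bases around the summit of the strongest peak, read from the RefSeq assembly of GRCm38 (mm10) and written 5′ to 3′ on the strand of the gene. The first 5 are the promoters with the strongest shared peaks, and the last 2 are the sites inside a gene that were present in all 4 lists. The sixth, labelled internal start, is the region just downstream of the internal starts of Dnmt3a. Its summit lies 356 bp past the start at 3891744, and the printed bases lie outside the promoter window. Capitals mark matches on either strand to short consensus words for ETS (CCGGAAG), NRF-1 (GCGCATGC), SP1 (GGGCGG), NFY (CCAAT), RUNX (TGTGGT), E2F (TTCCCGC or TTGGCGC), E-box (CACGTG) and EBF (CCCNNGGG) factors.
Dnmt1, chr9:20952917-20953117, minus strand: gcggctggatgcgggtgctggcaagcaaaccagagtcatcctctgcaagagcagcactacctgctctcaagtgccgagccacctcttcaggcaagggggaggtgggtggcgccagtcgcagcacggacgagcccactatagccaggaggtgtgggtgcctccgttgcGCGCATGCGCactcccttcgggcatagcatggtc
Uhrf1, chr17:56303249-56303449, plus strand: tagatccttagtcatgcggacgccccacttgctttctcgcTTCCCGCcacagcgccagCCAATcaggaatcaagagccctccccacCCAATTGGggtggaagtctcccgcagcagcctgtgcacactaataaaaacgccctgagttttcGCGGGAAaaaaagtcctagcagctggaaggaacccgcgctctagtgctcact
Tet2, chr3:133544308-133544508, minus strand: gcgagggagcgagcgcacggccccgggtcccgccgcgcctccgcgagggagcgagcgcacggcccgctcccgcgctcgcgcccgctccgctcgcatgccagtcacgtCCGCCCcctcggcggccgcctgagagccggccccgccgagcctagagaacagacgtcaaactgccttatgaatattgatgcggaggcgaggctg
Tet3, chr6:83456525-83456725, minus strand: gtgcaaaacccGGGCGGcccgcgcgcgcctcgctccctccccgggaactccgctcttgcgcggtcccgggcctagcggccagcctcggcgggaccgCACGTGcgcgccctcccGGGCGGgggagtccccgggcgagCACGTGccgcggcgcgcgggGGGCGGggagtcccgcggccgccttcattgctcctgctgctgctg
Tdg, chr10:82629664-82629864, plus strand: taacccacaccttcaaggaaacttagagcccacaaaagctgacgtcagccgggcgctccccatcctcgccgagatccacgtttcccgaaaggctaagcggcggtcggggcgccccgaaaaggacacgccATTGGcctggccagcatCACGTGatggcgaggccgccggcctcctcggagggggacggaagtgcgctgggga
Dnmt3a internal start, chr12:3892000-3892200, plus strand: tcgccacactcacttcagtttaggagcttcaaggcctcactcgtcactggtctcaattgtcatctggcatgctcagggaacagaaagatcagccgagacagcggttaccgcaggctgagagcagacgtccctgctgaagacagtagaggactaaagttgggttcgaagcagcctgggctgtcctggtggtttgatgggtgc
Dnmt3a intron, chr12:3855682-3855882, plus strand: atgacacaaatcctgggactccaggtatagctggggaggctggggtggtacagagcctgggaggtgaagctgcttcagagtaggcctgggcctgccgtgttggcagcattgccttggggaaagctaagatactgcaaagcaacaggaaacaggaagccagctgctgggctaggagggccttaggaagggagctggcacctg
Uhrf1 exon, chr17:56309680-56309880, plus strand: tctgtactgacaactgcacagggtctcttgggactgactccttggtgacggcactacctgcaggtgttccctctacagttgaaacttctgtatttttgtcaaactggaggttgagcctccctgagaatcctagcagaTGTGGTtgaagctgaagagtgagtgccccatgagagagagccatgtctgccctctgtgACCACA

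The 4 peak lists held 35189 and 34729 peaks with CDK6-WT against 39797 and 37304 with CDK6-K43M (replicates 1 and 2). The strength of a peak is given as the percentile of its −log10 q-value among all peaks of the same list, so that 100 is the strongest peak of a list. The number of reads at each summit was recovered from the deposited values, with exact Poisson 95% intervals that cover counting error only. The smallest number of reads at any listed summit was 7 to 9, depending on the list. Depth was estimated from the lowest background recovered in each list, per base of the shortest peak, and not from read totals. Relative to the CDK6-WT library of the same replicate number, the estimate was 1.19-fold for CDK6-K43M replicate 1 and 0.911-fold for CDK6-K43M replicate 2.

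Most of the genes had a promoter site found with either variant. A promoter region bound by both variants, that is, a merged region that overlapped a promoter window and had a peak in at least 3 of the 4 lists, was present at 6 of 8 genes (Dnmt1, Uhrf1, Dnmt3a, Tet2, Tet3 and Tdg), against 41.5% of all protein-coding genes and 67.1% of those with a CpG-rich start. A start was called CpG-rich when the 1001 bp around it had a GC content of at least 50% and an observed to expected CpG ratio of at least 0.6. All 8 members had such a start, so 67.1% is the closer comparison, and 6 of 8 was near that share. The same 6 genes had a promoter peak in all 4 lists, which held for 33.3% of all genes. Tet1 had a promoter peak in the replicate 2 lists alone, a pattern found in 1.28% of genes, and Dnmt3b had one in CDK6-K43M replicate 1 alone, found in 1.4% of genes. No member had promoter peaks in both replicate 1 lists alone, as 5.7% of genes did. By list, 6 members had a promoter peak in CDK6-WT replicate 1 (47.2% of all genes), 7 in CDK6-WT replicate 2 (40.3%), 7 in CDK6-K43M replicate 1 (48.7%) and 7 in CDK6-K43M replicate 2 (39.5%). The mean was 6.5 ± 0.707 members in the CDK6-WT lists and 7.0 ± 0.0 in the CDK6-K43M lists (SD, n = 2). This difference of 0.5 did not exceed the spread between libraries (exact two-sided permutation test over 6 assignments, p = 1.0, where the smallest p that the design allows is 0.333).

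**Figure D1:**
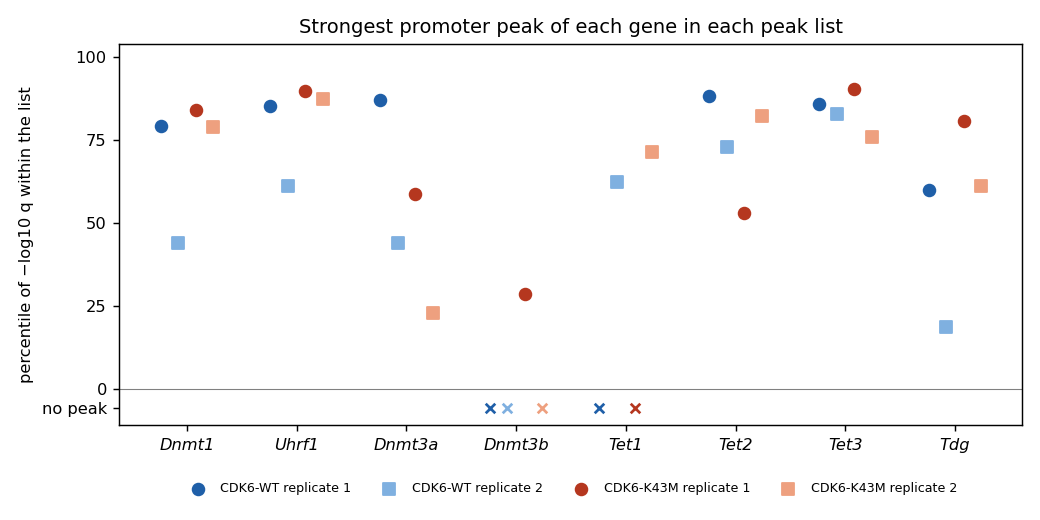
Percentile of −log10 q within its list (y axis) of the strongest promoter peak of each gene (x axis) in the 4 lists, with circles for replicate 1, squares for replicate 2, blue for CDK6-WT, red for CDK6-K43M and crosses for a list without a promoter peak. Dnmt3b has 1 point and Tet1 has 2. Among the genes with a point in all 4 lists, the points of the 2 variants are fully apart at Uhrf1 and Tdg alone.

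Over promoters and gene bodies the 8 genes held 30 of 56748 regions made by merging overlapping peaks of the 4 lists. Of these, 15 overlapped a promoter window and 15 lay in the gene body outside it. A peak was present in all 4 lists at 9 regions, in 3 lists at 2, in both replicate 1 lists alone at 6, in both replicate 2 lists alone at 4, and in a single list at 9. No region of any member was unique to a variant, meaning present in both lists of that variant and in neither list of the other, whereas 3.81% of genes of similar length (20166 to 108437 bp, the range of the members) had such a region. Lacking one is thus the usual case.

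Dnmt1, the maintenance methyltransferase (chr9:20907209-20959888, minus strand), had a single region, at its main promoter (chr9:20952293-20953242). The percentiles there were 79.2 and 43.9 with CDK6-WT against 84.1 and 78.9 with CDK6-K43M, with 29, 15, 38 and 20 reads at the summit. The low value was CDK6-WT replicate 2, and the variants overlapped. The position of the strongest summit followed the replicate number. In both replicate 1 lists it lay within 38 bp of the start at 20952979, and in both replicate 2 lists it lay within 36 bp of a second annotated start at 20952605. In every list but CDK6-WT replicate 2 a single peak covered both starts. CDK6-WT replicate 2 had a further peak 3 bp from the first start, with 14 reads but a percentile of 0.09. That peak and its neighbour differed by 1 read, while the local background amounted to 4.35 expected reads at the weaker and 1.73 at the stronger peak. The upstream start at 20959888 had no peak in any list, with the nearest summit 6871 to 7319 bp away.

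Uhrf1 (chr17:56303321-56323486, plus strand) encodes the reader of hemimethylated DNA that brings DNMT1 to its substrate, and it carried both a promoter site and a site inside the gene. The promoter region (chr17:56303048-56304800) covered 2 groups of starts. At the first, 56303321, a summit lay within 28 bp in every list, with percentiles of 82.0 and 61.1 with CDK6-WT against 89.8 and 87.5 with CDK6-K43M. At the second, around 56304313, CDK6-WT replicate 1 had its strongest promoter peak, with a percentile of 85.1. CDK6-WT replicate 2 and CDK6-K43M replicate 2 also had a peak there, with percentiles of 10.2 and 48.7, and in CDK6-K43M replicate 1 a single broad peak of 1753 bp spanned both starts. The site inside the gene (chr17:56309388-56310100, overlapping an exon) lay 6.4 to 6.5 kb from the first start. Its percentiles were 80.7, 76.7, 95.3 and 78.9 in the order CDK6-WT replicates 1 and 2 and CDK6-K43M replicates 1 and 2, with 28, 22, 51 and 20 reads. The 4 summits fell within 51 bp, while the variants overlapped in strength.

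Dnmt3a, a de novo methyltransferase (chr12:3806007-3914443, plus strand), held 17 of the 30 regions. Among the 7870 genes within the length range of the members the median was 2 regions, and 0.28% had at least 17. Dnmt3a was singled out after its count was seen and is the longest member, so this share is a description. The site with the highest mean percentile (90.7) and the narrowest range of percentiles among the 9 regions in all 4 lists lay in an intron 49.8 kb into the gene (chr12:3855491-3856630) and not at a start. Its percentiles were 86.9 and 92.1 with CDK6-WT against 87.3 and 96.4 with CDK6-K43M, with a fold enrichment over the local background of 11.97 and 11.48 against 10.2 and 14.4. The summits of all 4 lists fell within 51 bp, compared with a median of 100 bp over all 16381 regions with a peak in 4 lists. The variants overlapped, and the difference of 2.38 percentile points was within the spread (exact permutation p = 0.667). The nearest annotated start was 5188 to 5239 bp away.

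The 2 main promoters of Dnmt3a differed in how many lists held them. The first start region, which is CpG-rich and begins the full-length transcripts, had 3 regions, each called in the 2 replicate 1 lists and missing from the replicate 2 lists. The strongest of them (chr12:3806250-3806491) had a percentile of 87.2 with 32 reads in CDK6-WT replicate 1 and 58.7 with 23 reads in CDK6-K43M replicate 1. In the replicate 2 lists the nearest summit was 14051 bp (CDK6-WT) and 13996 bp (CDK6-K43M) from the most upstream start. The internal start region, with starts at 3891728 and 3891744, was flanked by 2 regions with a peak in all 4 lists. The upstream one (chr12:3890961-3891625) had percentiles of 45.6 and 41.0 with CDK6-WT against 43.1 and 22.9 with CDK6-K43M. The downstream one (chr12:3891928-3892203) had 30.0 and 43.9 with CDK6-WT against 45.4 and 68.9 with CDK6-K43M, so that both CDK6-K43M values lay above both CDK6-WT values, with 14 and 15 reads against 19 and 17 reads. Only the CDK6-WT replicate 2 peak of the downstream region reached into the promoter window itself. The strongest promoter peak of Dnmt3a in each list was therefore not at the same start, and its percentiles of 87.2, 43.9, 58.7 and 22.9 compare different sites. A further promoter region (chr12:3892332-3892948) was in both replicate 1 lists alone, with percentiles of 13.6 (CDK6-WT) and 22.8 (CDK6-K43M).

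**Figure D2:**
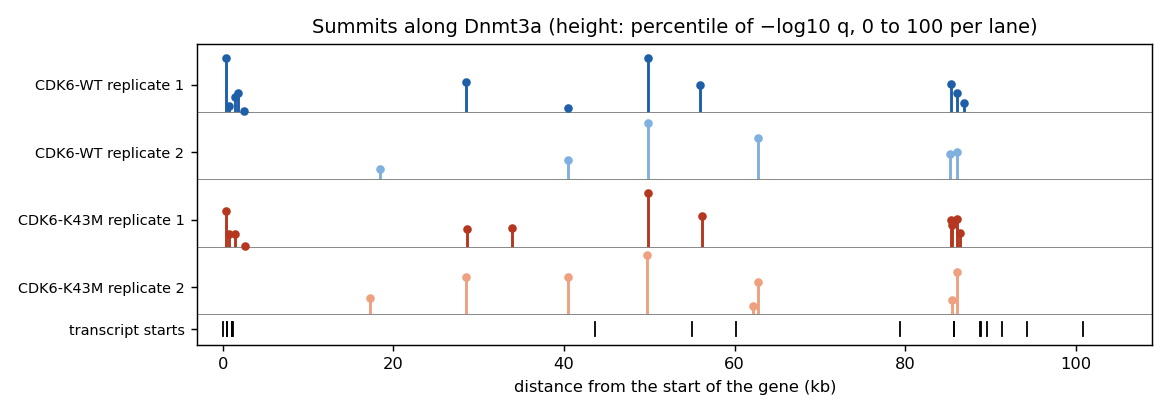
Summits of all Dnmt3a peaks in the 4 lists (rows), with the height of each line giving the percentile of −log10 q from 0 to 100 within its row, along the distance in kb from the start of the gene, and annotated transcript starts as ticks at the bottom. The intronic site at 49.8 kb is the tallest peak in every row but CDK6-WT replicate 1, and the peaks at the first starts are in the replicate 1 rows alone.

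Dnmt3b, the other de novo methyltransferase (chr2:153649450-153687730, plus strand), had a called peak in a single list. Its single peak (chr2:153649554-153649739) was in CDK6-K43M replicate 1, the library with the highest estimated depth. The peak had 15 reads, with an interval of 8.4 to 24.7 reads, and a percentile of 28.6. In the other lists the nearest summit to its first start was 16698 to 16723 bp away. Absence from a list is not absence of binding, since no listed summit had fewer than 7 to 9 reads. Where the local background was higher, more reads were needed. In CDK6-WT replicate 2 a Dnmt1 peak with 14 reads over 4.35 expected reads had a percentile of 0.09.

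The genes of the TET dioxygenases differed in how many lists held a promoter peak. Tet2 (chr3:133463679-133545139, minus strand) had a promoter region in all 4 lists (chr3:133544151-133545130), with summits within 28 bp of an annotated start. The percentiles were 88.4 and 72.8 with CDK6-WT against 53.0 and 82.3 with CDK6-K43M, with 47, 22, 31 and 23 reads. Within replicate 1 the CDK6-K43M value differed by -35.37 points and within replicate 2 by 9.52 points. The expected background at the summit was 4.12 and 4.93 reads in the replicate 1 lists and 1.99 and 1.95 in the replicate 2 lists, and its part in the percentiles was not tested. An intronic region 2018 to 2046 bp from a start (chr3:133542125-133542495) was in both replicate 2 lists alone, with percentiles of 47.3 and 61.2.

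Tet3 (chr6:83362373-83459084, minus strand) had the narrowest range of promoter percentiles among the 6 genes with a peak in all 4 lists. The region (chr6:83455378-83457029) had percentiles of 85.9 and 83.0 with CDK6-WT against 90.3 and 75.9 with CDK6-K43M, and the strongest summits lay 233 to 287 bp upstream of the start at 83456392. They fell within 54 bp of each other, and the difference of the means, -1.33 points, was within the spread (exact permutation p = 1.0). A second region upstream of the start at 83459084 (chr6:83459715-83460055) was in both replicate 2 lists alone, with percentiles of 4.13 and 52.0. The 3 transcripts that start around 83441678 had no peak in any list, with the nearest summit 13895 to 14947 bp away.

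Tet1 (chr10:62804570-62908996, minus strand) was the TET gene without a shared promoter site. Its single region (chr10:62893587-62894020) lay 681 to 693 bp upstream of the start at 62892986 and was called in both replicate 2 lists, with percentiles of 62.5 (27 reads, CDK6-WT) and 71.5 (23 reads, CDK6-K43M). In the replicate 1 lists the nearest summits to that start were 27628 and 27638 bp away. The CpG-rich start of Tet1, at 62887512, had no peak in any list, and the nearest summits were 6155 and 6167 bp away in the replicate 2 lists and 33102 and 33112 bp away in the replicate 1 lists.

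Tdg, the thymine DNA glycosylase of the demethylation pathway (chr10:82629828-82650799, plus strand), had 1 region, at its first starts (chr10:82629317-82630330). The percentiles were 59.8 and 18.5 with CDK6-WT against 80.8 and 61.2 with CDK6-K43M, which placed both CDK6-K43M lists above both CDK6-WT lists. In reads at the summit the order was different, with 26 and 19 with CDK6-WT against 43 and 17 with CDK6-K43M. The expected background was 3.09 and 4.35 reads with CDK6-WT against 3.69 and 1.98 with CDK6-K43M. The summits lay 64 to 154 bp upstream of the start at 82629828, with CDK6-WT replicate 2 the farthest. When the peaks of each list were ranked by reads in place of −log10 q, a choice made after the values were seen, the variants overlapped at Tdg, with a difference of 10.1 points (exact permutation p = 0.667).

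Between the variants, the strongest promoter peaks of Uhrf1 and Tdg were higher in percentile in both CDK6-K43M lists than in both CDK6-WT lists. This was 2 of the 6 members with a promoter peak in all 4 lists, beside 6.77% of the 7310 such genes, and none of the members was higher in both CDK6-WT lists, beside 3.61%. The mean for Uhrf1 was 88.6 ± 1.67 with CDK6-K43M and 73.1 ± 17.03 with CDK6-WT (SD, n = 2), a difference of 15.6 points, and 4.68 and 26.4 points within replicates 1 and 2. The mean for Tdg was 71.0 ± 13.8 against 39.1 ± 29.2, a difference of 31.9 points, and 20.95 and 42.8 points within the replicate numbers. Both gave an exact permutation p of 0.333, the smallest that 2 libraries against 2 can give, so neither can be called a change. For Dnmt1 the difference was 19.9 points (p = 0.667 in the exact permutation test), for Tet2 it was -12.93 points (exact permutation p = 0.667) and for Dnmt3a it was -24.75 points (exact permutation p = 0.667). Without CDK6-WT replicate 2 the Dnmt1 difference was 2.24 points, and without CDK6-WT replicate 1 it was 37.58 points. The Dnmt3a difference was -3.07 and -46.43 points without CDK6-WT replicates 1 and 2, -42.62 and -6.89 points without CDK6-K43M replicates 1 and 2, and -1.76 points with promoters of 500 bp to either side. Ranked by fold enrichment, Dnmt1 too was higher in both CDK6-K43M lists. Region by region, 3 of the 9 member regions with a peak in all 4 lists were higher in both CDK6-K43M lists, namely the Uhrf1 and Tdg promoters and the downstream Dnmt3a internal region, beside 9.8% of all 16381 such regions. None was higher in both CDK6-WT lists, beside 5.08%. The lowest value at Uhrf1 and Tdg was that of CDK6-WT replicate 2, and without it the differences were 3.5 and 11.2 points. Without CDK6-WT replicate 1 they were 27.6 and 52.5 points.

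**Figure D3:**
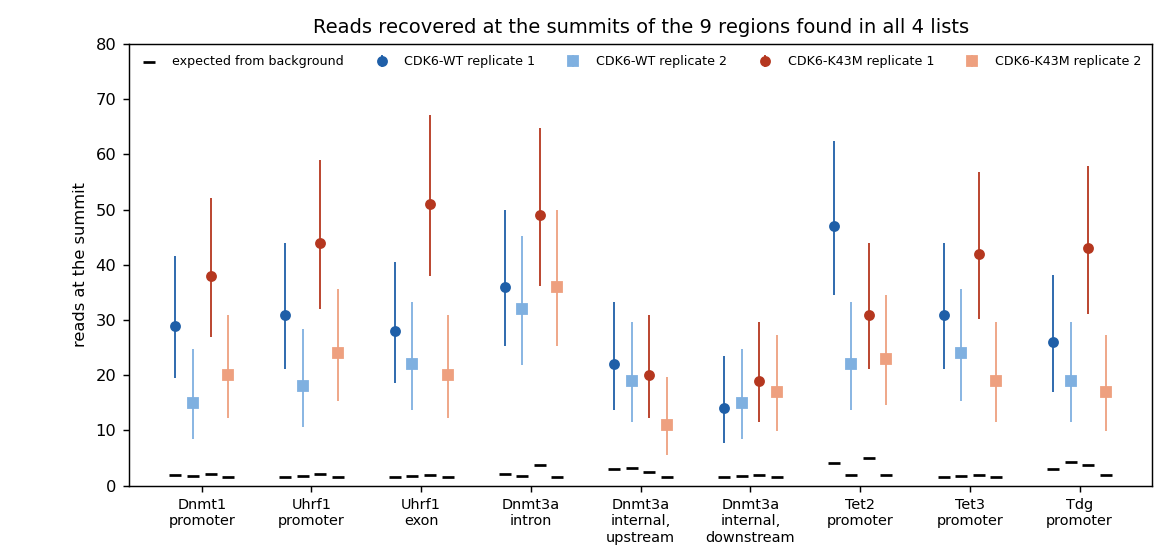
Reads recovered at the summit (y axis) of the strongest peak in each list for the 9 member regions with a peak in all 4 lists (x axis), with exact Poisson 95% intervals for counting error as bars and the reads expected from the local background as black dashes. CDK6-K43M replicate 1, the library with the highest estimated depth, has the most reads at 7 of the 9 regions. The intervals of the variants overlap within each replicate number at all 9.

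Values also moved with the replicate number. Dnmt1, Dnmt3a and Tet3 had a higher percentile in both replicate 1 lists than in both replicate 2 lists, 3 of 6 members beside 69.4% of genes, and none showed the opposite, beside 10.1%. All 6 regions that were in both replicate 1 lists alone belonged to Dnmt3a. The 4 in both replicate 2 lists alone were the Tet1 region, the upstream Tet3 region, the Tet2 intronic region and a Dnmt3a intronic region. Base composition, examined after these patterns were seen, moved with them. Over the 201 bp around the summit, the 6 replicate 1 regions had a median GC content of 66.2% (56.2 to 83.6%) and the 4 replicate 2 regions one of 51.2% (43.8 to 58.7%). Over the whole series the medians were 52.7% for 7357 regions in the replicate 1 lists alone and 47.8% for 6260 in the replicate 2 lists alone, against 54.7% for regions in all 4 lists. The part of base composition in the calls was not tested.

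CpG-rich starts carried most of the shared promoter binding. The 8 genes had 37 separate promoter windows, of which 8 were CpG-rich, exactly 1 for each gene. Of these 8 windows 5 had a peak in all 4 lists (Dnmt1, Uhrf1, Tet2, Tet3 and Tdg), beside 52.0% of the CpG-rich windows of all genes. The other 3 were the first start of Dnmt3a, in the replicate 1 lists, the start of Dnmt3b, in CDK6-K43M replicate 1, and the start of Tet1, in no list. Of the 29 other windows 4 had a peak in any list, beside 13.5% of such windows. Both shares were thus near those over all genes. These 4 windows were the internal start of Dnmt3a, the window that follows it, the Tet1 start at 62892986 and the Tet3 start at 83459084. The internal start of Dnmt3a, in all 4 lists, had a CpG ratio of 0.52 and a GC content of 62.9%. Both stable sites inside genes were CpG-poor, with 1 CpG each in the 201 bases printed above and a CpG ratio of 0.064 (Dnmt3a) and 0.076 (Uhrf1).

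Outside promoters, 2 of the 8 genes (Dnmt3a and Uhrf1) had a gene-body region bound by both variants, beside 25.2% of genes of the same length range. The share among the members was thus at the background. Of the 15 gene-body regions 13 lay in introns alone, and 4 were bound by both variants, 3 of them in Dnmt3a.

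The words found in the printed promoter windows differed between members. Dnmt1 held the NRF-1 word, in a palindromic stretch read on both strands, beside 6.1% of the 9101 promoters bound by both variants. The word lay 67 bp downstream of the CDK6-K43M replicate 1 summit, and the strongest replicate 2 summits lay outside the printed bases. The SP1 word was found in Tet2 and Tet3 (55.3% of bound promoters), the NFY word in Uhrf1 and Tdg (24.9%) and the E-box word in Tet3 and Tdg (9.04%). Uhrf1 held the E2F word, 60 bp before and 49 bp after the CDK6-K43M replicate 1 summit (10.7%). The strongest CDK6-WT replicate 1 summit of that promoter lay outside the printed bases. The ETS, RUNX and EBF words were in none of the 6 summit windows of promoter regions and in 20.9%, 9.7% and 14.4% of the bound promoters. The Dnmt3a window among these lay just downstream of the promoter window and held none of the words. The site inside Uhrf1 held the RUNX word at 37 and 95 bp from the summit, and the intronic Dnmt3a window held none of the words. A match describes the letters in the window and not a factor bound there.

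The wider pathway was described by 32 related genes. A promoter region bound by both variants was present at 27 of them, again to be read beside 41.5% of all genes and 67.1% of those with a CpG-rich start. By role these were 8 of 11 genes for methylation writing and cofactor supply, 3 of 4 CXXC proteins, which bind unmethylated CpG, 7 of 8 readers of methylated CpG, and 9 of 9 genes of demethylation and base excision repair. In the last set Ung, a uracil glycosylase named here after its values were seen, counts through a merged region at the edge of its promoter window, while its own promoter peaks were in both replicate 1 lists alone, with percentiles of 76.1 and 63.4. Promoter peaks were found at 28 and 25 related genes in the CDK6-WT lists and at 28 and 23 in the CDK6-K43M lists, so the counts differed between replicate numbers and not in a constant direction between variants. No list had a promoter peak at Dnmt3l, the catalytically inactive partner of DNMT3A in germ cells, at Dppa3, a maternal factor that restrains UHRF1, at Idh2, a mitochondrial isocitrate dehydrogenase, or at Cxxc4. Zbtb4, a reader of methylated DNA, had a promoter peak in both replicate 1 lists alone, with percentiles of 74.4 and 45.4. Usp7, a deubiquitinase that stabilises UHRF1 and DNMT1, was the sole related gene with a promoter region unique to CDK6-K43M, beside a region bound by both variants in the same promoter. The share of all genes with a variant-unique promoter region was not computed, so the Usp7 region is a description.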

How the data were processed

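The 4 anti-HA peak lists (mm10), 1 per library, were analysed. Per the labels and the methods of the study, the authors used Trimmomatic 0.36 for trimming and BWA 0.7.15 for alignment of the reads, filtered them with bedtools and SAMtools 1.3.1 (blacklisted regions, multimapping or low-quality reads), and called peaks per library with MACS2 2.1.0. The deposited values are the enrichment of the summit as a fold over local background, its p-value and q-value as −log10, a score (10 times the −log10 q, cut to a whole number) and other information, the summit offset. Only peaks past the authors' threshold were listed.

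Overlapping peaks (1 bp or more) of the 4 lists were merged. The merged regions were then classified by the definitions of the study with merged intervals in place of DiffBind. Gene models came from GENCODE M21. Reads at summits were recovered by solving fold and −log10 p together, and at least 99.997% of peaks in each list gave a whole number within 0.001 of the −log10 p. The 4 libraries were compared by exact two-sided permutation tests. The code was tested on simulated lists. All 8 genes are named, their promoter regions and the gene-body regions in all 4 lists are described, and the other regions are counted. Related genes are named when they lacked a promoter region bound by both variants or had one unique to a variant. One gene of the planned list is not reported here. Members, lists and words were chosen with earlier results of these data known. Python 3.11.15, numpy 2.4.6, pandas 2.3.3, scipy 1.17.1 and matplotlib 3.10.9 were used.

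Alternative settings were a −log10 q of at least 5 or 10, the top 10000 peaks of each list, peaks within 500 bp merged, summits extended by 100 bp, promoters of 500 bp to either side, protein-coding transcripts alone, shared sites required in all 4 lists, a block for the replicate number, ranking by fold enrichment, each library left out in turn and, added after the data were seen, ranking by reads.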

Additional observations from a re-analysis of the deposited data

How the results depend on the processing

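Of 123 values under 15 alternative settings, 110 kept their direction or stayed within 1.5 times the value reported. This tally overstates the agreement, since the values under the replicate block were the reported ones and could not move. A member without a promoter peak in every list under a setting also gave no difference there. At a minimum −log10 q of 10 and in the top 10000 peaks Tet3 alone gave one. The 6 genes with a promoter region bound by both variants were the same under each alternative, except that a minimum −log10 q of 10 and the top 10000 peaks per list left 4, Dnmt1, Uhrf1, Tet2 and Tet3. Dnmt3a and Uhrf1 were the 2 genes with a gene-body region bound by both variants under each alternative run for that count, which counts genes and not single regions. The 2 promoters higher in both CDK6-K43M lists became 0 with a minimum −log10 q of 5 or 10 or the top 10000 peaks, where Tdg had no peak left in CDK6-WT replicate 2. At a minimum of 5 the variants overlapped at Uhrf1, with a difference of 22.94 points (exact permutation p = 0.667). Ranking by fold enrichment gave 3 (Dnmt1, Uhrf1 and Tdg), with Dnmt1 at 19.32 points (exact permutation p = 0.333), and ranking by reads gave 1 (Uhrf1). Leaving out a library gave 2 to 4 such promoters, with 4 without CDK6-K43M replicate 2. It also gave 1 to 4 variant-unique regions in place of 0, since 1 list then stood for a variant, with 4 without either CDK6-K43M library, 2 without CDK6-WT replicate 1 and 1 without CDK6-WT replicate 2. The difference of 0.5 members per list ranged from 0.0 (without CDK6-WT replicate 1) to 1.0. When libraries were left out, the Tet3 difference ranged from -8.56 to 5.89, with 0.15 without CDK6-WT replicate 1 and 5.89 without CDK6-K43M replicate 2, and the Tet2 difference from -27.59 to 1.74, the latter without CDK6-K43M replicate 1. With the replicate number as a block the difference of 0.5 members had an exact p of 1.0, and those of Uhrf1 and Tdg had an exact p of 0.5, the smallest that 2 pairs allow. The block left every value as reported, so it could change no call. Depth limits the precision, since the summits of the 9 regions in all 4 lists rested on 11 to 51 reads.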
